A study of Mus musculus with 1094 samples.

Results

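The data compared here are the transcriptomes of single cells from the dorsal cortex of newborn mice, sorted as basal progenitors (labelled BP) or as neural stem cells (labelled NSC) at the stage labelled P0. Members were chosen by label and by one quality limit, at least 1000 genes at 1 TPM (transcript abundance scaled to the same total in every cell) or more in a cell. The limit kept 75 of 76 BP cells and 45 of 48 NSC cells, 120 of the 1094 cells in the series. The BP cell left out held 74 genes and the 3 NSC cells left out held 5 to 54, whereas the lowest kept cells held 3318 and 3032 genes. All mice were labelled as wild-type C57Bl/6 females with an age of 1 day. BP cells came from the Tbr2::GFP line and NSC from the Hes5::GFP line, so that green fluorescent protein driven by the Tbr2 (Eomes) or the Hes5 gene marked the cells that were sorted. The series holds 17 such libraries, here meaning all cells of 1 population at 1 stage, over embryonic and early postnatal days, including a newborn neuron population (NBN). Cells were captured on a Fluidigm C1 chip, and cDNA from each was sequenced.

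Neural stem cells of the embryonic cortex are radial glia, which line the ventricle and are kept undifferentiated by Notch signals through the Hes factors. They give rise to basal (intermediate) progenitors, which express the T-box factor Eomes and divide away from the ventricle, mostly to make neurons of the cortical layers. Around birth, radial glia turn from making neurons to making glia.

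With 1 library on each side there is no replicate, and the animals behind each library are not named. No test was made at P0: values are means over cells, their spread over cells, and shares of cells with exact Clopper-Pearson 95% intervals that cover counting error only. The mouse line, the population and the library cannot be told apart. TPM values do not keep sequencing depth, but the libraries held similar numbers of genes in a cell, with a median of 5239 in BP (3318 to 8573) and 5076 in NSC (3032 to 6810). Over all 17 libraries the median ran from 3189 to 5764 genes. Transcripts of the mitochondrial genome made up a median of 6.27% in BP and 5.25% in NSC, and those of ribosomal proteins 5.14% and 4.36%. No cell's values were identical to those of another cell among the 1094.

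The reporter genes were examined first. Hes5, a Notch target of the Hes family (chromosome 4, 154960923 to 154962371, plus strand, GRCm38), was listed at 0 in all 75 BP cells. In NSC it ranged from 0 to 1041 TPM with a median of 12.53 and a mean of 52.5 TPM, and 24 of 45 cells (53.3%, 37.9 to 68.3%) reached 10 TPM. A count of 0 in 75 cells allows a share of up to 4% when taken as 3 cells of the total, and of up to 4.80% by the exact interval. Eomes (chromosome 9, 118478212 to 118486132, plus strand) did not separate the libraries. Its median was 1.76 TPM in BP, with a highest value of 1052, and 22.5 TPM in NSC, with a highest value of 1934. It reached 10 TPM in 32 of 75 BP cells (42.7%, 31.3 to 54.6%) and in 25 of 45 NSC cells (55.6%, 40 to 70.4%), and the cells of both libraries spanned the range from near 0 to over 1000 TPM. The mean of Eomes was 119 TPM in BP and 226 TPM in NSC, where the cells had been sorted with the other reporter. Since both genes drove the sort, neither is an independent measure of the populations. Both are still counted in lists below, Hes5 among the radial glia and Notch genes and Eomes among the basal progenitor genes. They also enter the cell scores made from the radial glia and basal progenitor lists.

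The promoters of these 2 genes are shown because their activity defined the cells. RefSeq sequence of GRCm38.p6 from 250 bases before to 50 bases after the start of each gene was searched on both strands for TGGGAA, the core letters bound by the Notch effector Rbpj, and for the E-box letters CAGATG and CAGCTG. The matches found did not overlap one another. Capitals mark TGGGAA or its reverse complement TTCCCA. Hes5, chr4:154960673-154960972, and Eomes, chr9:118477939-118478238, both on the plus strand, read:
Hes5: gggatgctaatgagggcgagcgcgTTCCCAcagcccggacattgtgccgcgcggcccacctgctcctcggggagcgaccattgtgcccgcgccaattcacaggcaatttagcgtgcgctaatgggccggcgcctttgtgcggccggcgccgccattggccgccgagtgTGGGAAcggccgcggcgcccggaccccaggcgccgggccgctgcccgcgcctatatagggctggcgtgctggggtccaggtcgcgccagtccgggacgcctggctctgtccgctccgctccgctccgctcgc
Eomes: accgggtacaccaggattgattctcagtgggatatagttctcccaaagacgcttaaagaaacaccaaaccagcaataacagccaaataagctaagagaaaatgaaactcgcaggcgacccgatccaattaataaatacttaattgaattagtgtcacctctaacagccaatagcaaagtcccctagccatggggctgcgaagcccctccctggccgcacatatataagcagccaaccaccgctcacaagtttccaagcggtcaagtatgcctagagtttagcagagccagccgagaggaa
The Hes5 window held TGGGAA on the minus strand at position -226 and on the plus strand at position -82 from the start. The Eomes window held none of the 3 motifs. Of 32851 promoter windows of this length, 25.6% held TGGGAA at least once and 3.79% held it 2 or more times, 17.2% held CAGATG and 16.3% held CAGCTG. These letters are a description of the windows and show no binding.

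The labels were then set against marker genes. Each cell was scored by its mean log2(TPM + 1) over 19 radial glia genes and over 17 newborn neuron genes, and a neuron score above the radial glia score was called a neuron profile. In BP, 73 of 75 cells (97.3%, 90.7 to 99.7%) had a neuron profile, against 3 of 45 in NSC (6.67%, 1.40 to 18.3%). Only 1 BP cell and 3 NSC cells lay within 0.5 of equal scores. The median neuron score was 5.68 in BP and 2.28 in NSC, and the median radial glia score was 1.30 and 6.38. The score over 18 basal progenitor genes was nearly the same, with a median of 2.01 in BP (0.12 to 4.91) and 1.99 in NSC (0.14 to 4.20). By these lists the cells labelled BP at P0 mostly held neuron transcripts, while a part of both libraries held Eomes.

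**Figure D1:**
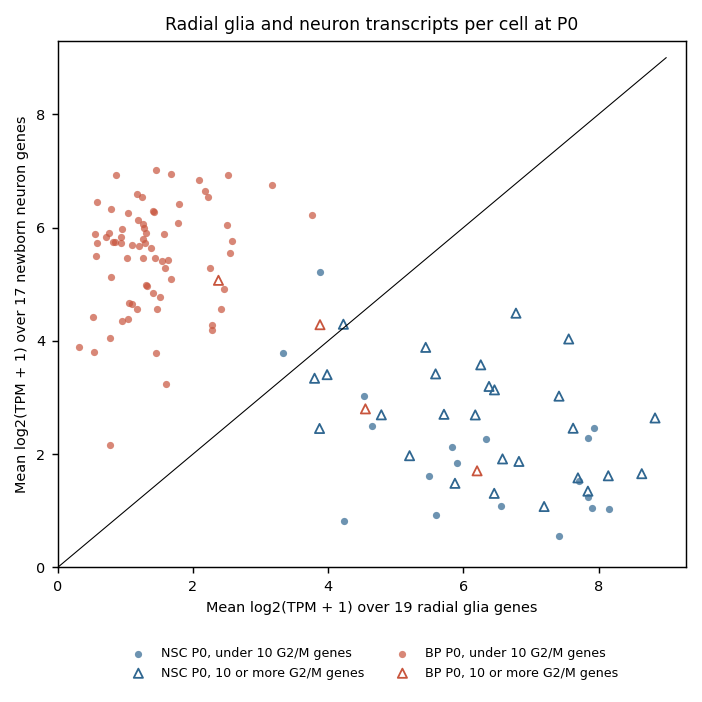
Mean log2(TPM + 1) over 19 radial glia genes (x axis) and 17 newborn neuron genes (y axis) in each of 45 NSC and 75 BP cells at P0; triangles mark cells with 10 or more of 20 G2/M genes at 1 TPM, and the line marks equal scores. The 73 BP cells with a neuron profile lie above the line, and 2 of the 4 BP triangles lie below it.

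Gene by gene, 9768 of 23078 genes were compared, those with an average of 5 TPM or more over both library means and at least 1 TPM in 10% of the 120 cells. Differences are BP minus NSC in log2(mean TPM + 1), a scale that understates the difference of low genes. Of the genes compared, 1945 (19.9%) were 2-fold or more higher in BP and 1911 (19.6%) were 2-fold or more lower, and the median difference was 0.07. These shares are the background for each list below. A list differed only as far as its share past 2-fold stands above 19.9% or 19.6%, and no list was tested.

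Radial glia genes were lower in BP than in NSC, 18 of 19 by 2-fold or more and none higher, with a median difference of -4.73. Fabp7, a fatty acid binding protein of radial glia, had a mean of 124.6 TPM in BP (median 0, highest 1061) and 6133 TPM in NSC (median 3030, 5.78 to 21030). The 2 libraries overlapped, since 27 of 75 BP cells reached 10 TPM, but 44 of 45 NSC cells did so. Slc1a3, the glutamate transporter GLAST, had a mean of 51.4 TPM in BP and 1641 TPM in NSC, and 18 BP cells (24%, 14.9 to 35.3%) and 43 NSC cells (95.6%, 84.9 to 99.5%) reached 10 TPM. Sox9, a transcription factor of stem cells and glia, averaged 22.9 and 299 TPM, and Sox2, a factor of neural stem cells, 8.84 and 74.9 TPM. Ddah1, an enzyme that breaks down methylated arginine, was the radial glia gene with the largest difference, at 3.84 TPM in BP and 757 TPM in NSC (-7.29). It reached 10 TPM in 1 BP cell and in 39 NSC cells. Pax6, a transcription factor of cortical stem cells, was at 77.6 and 178 TPM (-1.18) and was above 10 TPM in every cell of both libraries. Emx2 was the 1 member within 2-fold, at 9.31 and 13.2 TPM.

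Notch pathway genes that were lower in BP were mostly receptors and targets. Of 14 members compared, 7 were 2-fold or more lower in BP and none higher, with a median of -1.93. Without cells holding markers of other types 6 of 13 were lower and 2 higher, with a median of -0.43, and with the NSC of P1 in place of those of P0 6 of 12 were lower and 3 higher. The receptors Notch1 (4.66 TPM in BP, 50.5 in NSC) and Notch2 (1.49 and 75.3 TPM) were among them, and so were the targets Hes1 (0.62 and 56.1 TPM), Hey1 (1.04 and 58.3 TPM, but 0.015 TPM in NSC at P1) and Nrarp (0.35 and 26.6 TPM). Notch1 reached 10 TPM in 3 of 75 BP cells and 26 of 45 NSC cells. Among the ligands, Jag1 was at 7.96 and 72.1 TPM (-3.03), Dll1 at 23.5 and 42.8 TPM (-0.84) and Dll3 at 7.11 and 7.06 TPM (0.01). Rbpj, which carries the signal to DNA, was within 2-fold at 33.5 and 53.5 TPM, as was Numb, an inhibitor of Notch, at 43 and 31.1 TPM.

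**Figure D2:**
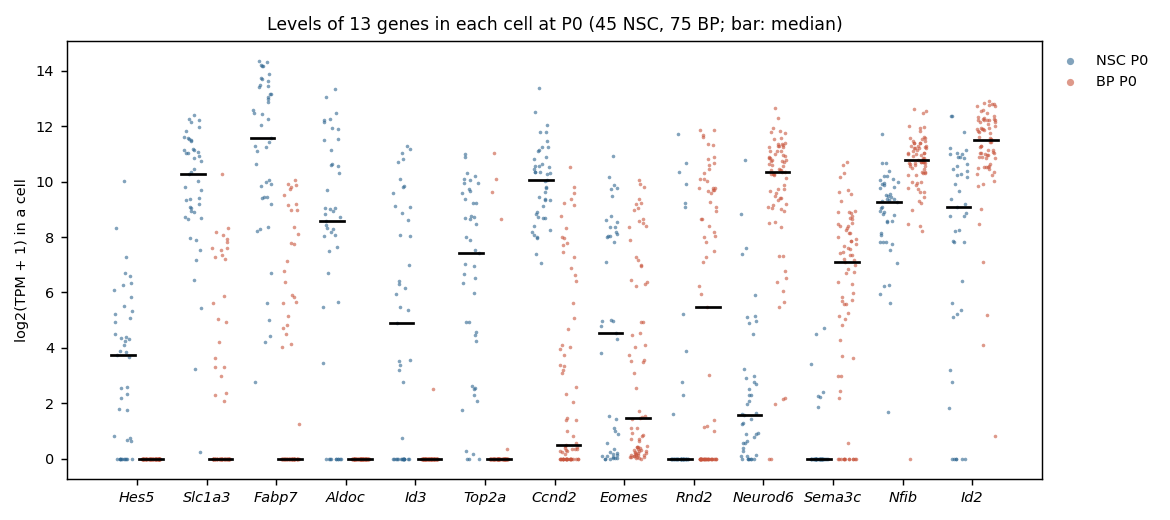
Level of 13 genes in each cell, as log2(TPM + 1) on the y axis, in 45 NSC cells (blue) and 75 BP cells (red) at P0; bars mark medians. Hes5, Aldoc, Id3 and Top2a have a median of 0 in BP, Eomes spans the same range in both, and Nfib and Id2 are present in nearly all BP cells.

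Astroglial genes were nearly as far apart. Of 22 compared, 18 were 2-fold or more lower in BP and 2 were higher, with a median of -4.25. Aldoc, the brain form of the glycolytic enzyme aldolase and a mark of astrocytes (chromosome 11, 78322968 to 78327781), was listed at 0 in all 75 BP cells. In NSC it ranged from 0 to 10423 TPM with a median of 381, and 35 of 45 cells (77.8%, 62.9 to 88.8%) reached 10 TPM. Aldh1l1, a folate enzyme used to mark astrocytes, was likewise at 0 in every BP cell and averaged 163 TPM in NSC, where 19 cells reached 10 TPM. Apoe, the lipid carrier made by astrocytes, averaged 4.96 TPM in BP, from 2 cells at 10 TPM or more, and 869 TPM in NSC, from 28 such cells. Sparc, a secreted matrix protein, averaged 1.34 and 544 TPM, and Gja1, the gap junction protein connexin 43, 0.25 and 262 TPM. Gfap, the filament protein of mature astrocytes, was at 0 in BP and reached 10 TPM in 6 NSC cells, and Gjb6 was listed at 0 in both libraries. The 2 members that were higher in BP were Nfib (1996 TPM against 673 TPM) and Nfix (1039 TPM against 264 TPM), nuclear factor I proteins known in both glia and cortical neurons, and Nfia was equal at 394 and 404 TPM. S100b did not separate the libraries, at 54.8 and 58.8 TPM with every cell above 10 TPM.

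The genes with the largest lower values in BP extended to signals and surface proteins. Id3, an inhibitor of helix-loop-helix factors that responds to BMP signals, reached 4.74 TPM in 1 BP cell and was under 1 TPM in the others, against a range of 0 to 2519 TPM and a median of 29 TPM in NSC. Among 10 BMP and Id genes, 6 were 2-fold or more lower, including Id4 (1.71 against 74.8 TPM) and the receptor Bmpr1a (9.48 against 54.9 TPM). Of the 10, 4 had a positive difference, but only Id2 was 2-fold or more higher. Id2 averaged 3195 TPM in BP and 1030 TPM in NSC, with 74 of 75 and 36 of 45 cells at 10 TPM or more. Cyr61, a secreted protein induced by the growth regulator Yap, had a mean of 0.03 TPM in BP and 501 TPM in NSC (median 8.17, highest 7199). Yap1 was itself listed at 0 in BP (24.2 TPM in NSC), and its partner Wwtr1 averaged 0.02 and 36.9 TPM. Of 8 Hippo pathway genes compared, 5 were lower by 2-fold or more and 1 was higher. With the NSC of P1 in place of those of P0 only 5 passed the filter, of which 2 were higher and 0 lower. Cyr61 was not among those 5, although its mean in the NSC of P1 was 181 TPM. In the FGF and SHH list 10 of 16 were lower and none higher, among them the receptor Fgfr3 (6.78 and 80.9 TPM) and the SHH co-receptor Gas1 (10.7 and 103 TPM). In the Wnt list 9 of 12 were lower and none higher (6 of 11 lower and 3 higher with the NSC of P1), among them the factor Tcf7l2, at 47.3 and 215 TPM. The remaining genes named for their size were the calcium-binding protein S100a1, the myelin protein gene Pmp22, the G protein subunit Gng12, the acyl-CoA synthetase Acsbg1, the lipid phosphatase Ppap2b, Tmem100, and the homeobox factor Dlx5. Among them, Pmp22, Gng12, Dlx5 and Tmem100 were listed at 0 in all 75 BP cells.

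Extracellular matrix genes followed the same direction, with 13 of 15 lower in BP by 2-fold or more, none higher and a median of -3.35. Tnc (tenascin C) averaged 3.15 TPM in BP and 454 TPM in NSC, and 2 BP cells but 32 NSC cells reached 10 TPM. Ncan (neurocan) differed less, at 233 and 579 TPM, and was above 10 TPM in all 120 cells. Metabolic lists were also lower in BP in their medians. Of 12 genes of serine and one-carbon metabolism, 8 were lower, such as Phgdh, the first enzyme of serine synthesis (68.2 against 448 TPM), and 1 was higher, the mitochondrial folate enzyme Aldh1l2 (27.2 against 2.06 TPM). Of 11 genes that handle glutamate and GABA, 8 were lower, including glutamine synthetase Glul (61.1 against 309 TPM). Of 17 glycolytic genes, 8 were lower and 1 higher, with Ldha at 187 and 945 TPM and Ldhb equal at 1103 and 1130 TPM. Cholesterol and fatty acid synthesis genes were lower for 8 of 20, with Idi1 at 24.3 and 310 TPM and Fasn (fatty acid synthase) equal at 42.4 and 42.8 TPM. The 13 genes of the mitochondrial genome had a median difference of 0.00, with none past 2-fold.

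**Figure D3:**
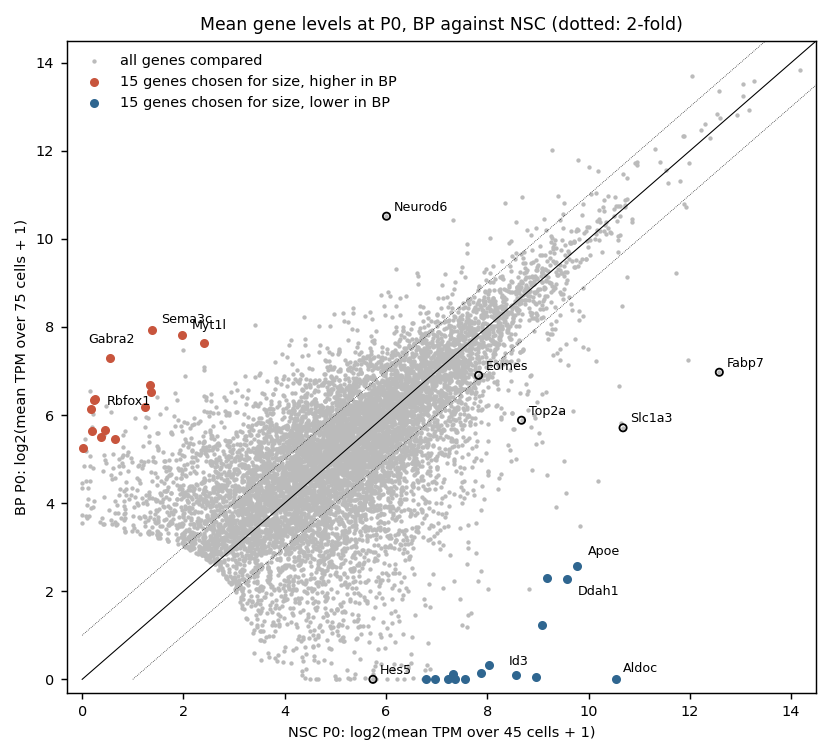
Mean TPM of each of 9768 genes in NSC P0 (x axis) and BP P0 (y axis), both as log2(mean TPM + 1); coloured points are the 30 genes chosen for their size, open circles 6 further genes, and dotted lines mark 2-fold. Aldoc and Id3 lie on the floor of the BP axis, and Rbfox1 and Gabra2 near the floor of the NSC axis.

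Genes of neurons were higher in BP. Of 17 newborn neuron genes 15 were 2-fold or more higher and none lower, with a median of 2.03. Neurod6, a helix-loop-helix factor of cortical projection neurons (chromosome 6, 55677822 to 55681263), averaged 1463 TPM in BP (median 1290, highest 6498) and 63.4 TPM in NSC (median 2.00, highest 1761). It reached 10 TPM in 70 of 75 BP cells (93.3%, 85.1 to 97.8%) and in 10 of 45 NSC cells (22.2%, 11.2 to 37.1%). Dcx, a microtubule protein of migrating neurons, averaged 588 and 143 TPM and reached 10 TPM in 72 BP and 28 NSC cells. Tubb3, the neuronal tubulin, averaged 3552 and 883 TPM. Nrp1, a receptor for semaphorins, averaged 301 and 19.8 TPM and reached 10 TPM in 57 BP and 4 NSC cells.

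Genes that mark the cortical layers were counted next, and the difference between the upper and deep layer lists was not tested. Of 10 upper-layer genes 7 were higher, with a median of 1.32, including Cux2 (89.3 and 16.8 TPM) and the netrin receptor Unc5d (211 and 20.2 TPM), and Rorb, a mark of layer 4, was lower (16.7 and 45.9 TPM). Of 6 deep-layer genes 1 was higher, Tbr1 (70 and 12.1 TPM), and the others lay within 2-fold, among them Sox5 (52.7 and 55.4 TPM) and Fezf2 (14.49 and 9.10 TPM). Of the same 6, 3 were higher without cells holding markers of other types, and 4 were higher and 1 lower with the NSC of P1 in place of those of P0.

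The genes with the largest higher values in BP were mostly surface, RNA-binding and excitability genes. Sema3c, a secreted axon guidance signal, averaged 244 TPM in BP (median 136, highest 1654) and 1.59 TPM in NSC (median 0, highest 25.4), and reached 10 TPM in 57 of 75 and 2 of 45 cells. Rbfox1, a splicing factor of neurons, averaged 80.4 and 0.18 TPM and reached 10 TPM in 48 BP cells and no NSC cell. A count of 0 in 45 cells allows a share of up to 6.67% as 3 cells of the total, and of up to 7.87% by the exact interval. Myt1l, a zinc finger factor of neurons, averaged 226 and 2.94 TPM and reached 10 TPM in 58 BP and 3 NSC cells. Gabra2, a subunit of the GABA-A receptor, had the largest difference, at 156 and 0.47 TPM (6.75), though its median in BP was 1.01 TPM and 32 of 75 cells reached 10 TPM. Its mean was 36.1 TPM in the NSC of P1 and up to 57.4 TPM in the other NSC libraries, and its difference at E18.5 was 1.14. Others named by size were Edil3, Arpp21, Aldh1b1, the kinase gene Pak7, Reep1 and Reep2, Pianp, the sulphotransferase gene Hs6st2 and the synaptic adhesion gene Clstn2. Their BP means were 43.1 to 102 TPM and their NSC means 0.13 to 1.56 TPM. The median over BP cells was 0 for Arpp21, Aldh1b1, Reep1, Reep2 and Pianp. Low NSC values were not general. Reep2 averaged 8.36 to 45 TPM in the other NSC libraries, and its difference at E18.5 was -0.33. In the NSC of P1 the means were 26.3 TPM for Reep2, 37.2 for Pak7, 15.2 for Arpp21 and 0 to 6.64 for the others.

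Axon guidance and migration genes were higher for 13 of 25 and lower for 3, with a median of 1.28. Besides those above, the receptors Robo2 (191 and 20.1 TPM) and Dcc (87.5 and 4.81 TPM) were higher, and Sema6a was lower at 4.26 and 92.9 TPM. Of 15 synapse and excitability genes 8 were higher and 2 lower. Snap25, of the vesicle fusion machinery, was at 303 and 46.9 TPM, and the AMPA receptor gene Gria2 at 427 and 157 TPM. Slc17a7, the vesicular glutamate transporter of mature cortical neurons, did not reach 10 TPM in any cell, whereas Slc17a6 averaged 160 and 56.6 TPM. Among 17 RNA-binding genes 9 were higher and 3 lower. Celf4 was at 131 and 22.2 TPM, and the glial regulator Qk was lower at 67.2 and 828 TPM, counting the higher of its 2 gene entries. Among 12 subunits of the BAF chromatin remodelling complex 5 were higher and 1 lower. The neuronal forms Actl6b (69.3 and 20.8 TPM), Dpf1 (36.6 and 5.34 TPM) and Ss18l1 (50.8 and 14 TPM) were among the higher ones, and Actl6a, which Actl6b replaces in neurons, was the lower one (48.6 and 137 TPM).

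Genes of basal progenitors went both ways. Of 14 compared, 4 were 2-fold or more higher in BP and 3 lower, with a median of -0.46, which turned to 0.32 (5 higher, 4 lower) without cells holding markers of other types. The higher ones were Sstr2, a somatostatin receptor (323 and 50.6 TPM), Neurod1, a helix-loop-helix factor downstream of Eomes (191 and 16.1 TPM), Rnd2, a small GTPase that guides migration (559 and 189 TPM), and Mfap4 (195 and 73.4 TPM). The lower ones were Neurog2, which drives neurogenesis (8.08 and 38.8 TPM, though 0.28 higher in log2 once cells with markers of other types were left out), Btg2, a brake on division (150 and 332 TPM), and Gadd45g (41.5 and 221 TPM). Insm1, a zinc finger factor of basal progenitors, was equal, in 36 of 75 BP cells (48%, 36.3 to 59.8%) and 20 of 45 NSC cells (44.4%, 29.6 to 60%) at 10 TPM. With the NSC of P1 in place of those of P0, 8 of 13 were higher and 3 lower, with a median of 1.85, and the NSC mean of Eomes was 25.2 TPM at P1 against 226 TPM at P0. Neurog1 was listed at 0 in both libraries.

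**Figure D4:**
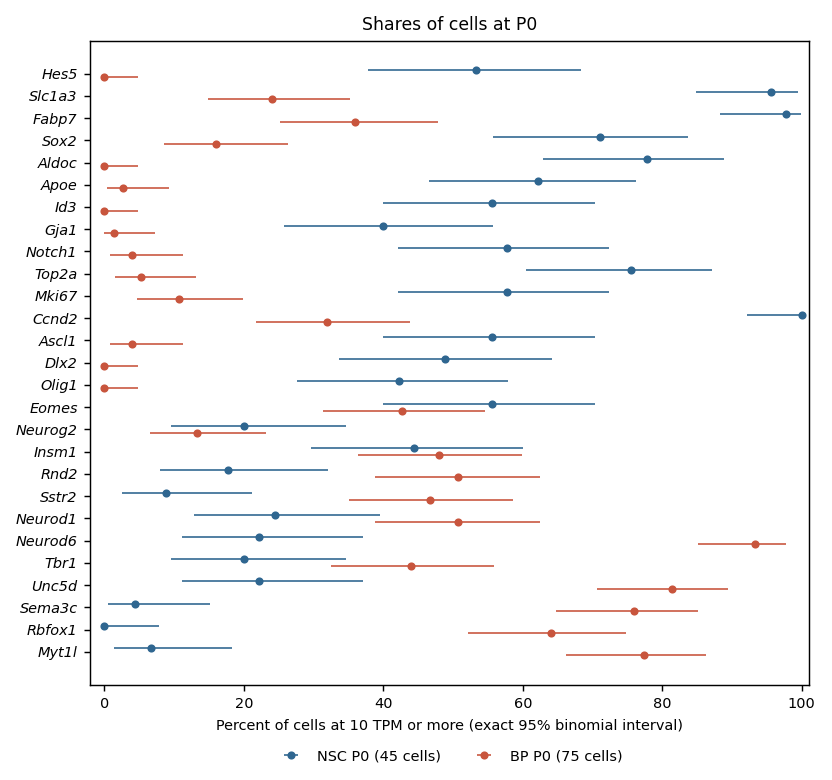
Percent of cells at 10 TPM or more for 27 genes (x axis), in 45 NSC cells (blue) and 75 BP cells (red) at P0, with exact 95% binomial intervals. Radial glia, astroglial and division genes stand higher in NSC, Eomes and Insm1 have overlapping intervals, and Neurod6 and Sema3c stand higher in BP.

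Genes found beside Eomes in single cells are given with their share over the whole library. In NSC, all 25 cells at 10 TPM of Eomes also held Slc1a3 at that level, as did 43 of all 45 cells. Sox2 was held by 19 of the 25 and by 32 of all 45, and Hes5 by 12 of the 25 and by 24 of all 45. The division gene Top2a was held by 21 of the 25 and by 34 of all 45, and Neurod6 by 8 of the 25 and by 10 of all 45. In BP, 29 of the 32 cells with Eomes held Neurod6, as did 70 of all 75. Slc1a3 was held by 10 of the 32 and by 18 of all 75, and Sox2 by 9 of the 32 and by 12 of all 75. Top2a was held by 4 BP cells, each of them among the 32, and Hes5 by none. None of these shares was tested against that of the whole library.

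Division genes were lower in BP. Of 19 G2/M genes 18 were 2-fold or more lower and none higher, with a median of -2.22, and of 17 G1/S and S phase genes 13 were lower and none higher, with a median of -1.73. Top2a, which untangles chromosomes, was high in few BP cells, with 4 of 75 (5.33%) at 10 TPM and a highest value of 2073 TPM. In NSC 34 of 45 (75.6%) reached 10 TPM and the mean was 408 TPM, against 58 TPM in BP. Ccnd2 (cyclin D2), a regulator of entry into S phase, reached 10 TPM in all 45 NSC cells and in 24 BP cells, with means of 1548 and 99.9 TPM. At least 10 of 20 G2/M genes at 1 TPM were found in 4 of 75 BP cells (5.33%, 1.47 to 13.1%) and 27 of 45 NSC cells (60%, 44.3 to 74.3%). That limit fell within the NSC distribution, since 23 NSC cells held 8 to 11 such genes, and at 10 TPM the count was 4 of 75 and 14 of 45 (31.1%, 18.2 to 46.6%). The 4 BP cells included both cells without a neuron profile. With the NSC of P1 in place of those of P0, 10 of 13 G2/M genes and 6 of 13 G1/S genes were lower, and 5 of 47 P1 cells passed the limit at 1 TPM.

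Markers of the interneuron and oligodendrocyte lineages were found mostly in NSC. At least 3 of the 16 interneuron markers present in the files reached 10 TPM in 19 of 45 NSC cells (42.2%, 27.7 to 57.8%) and in none of 75 BP cells. The markers summed over the list ranged from 7.04 to 2585 TPM in NSC (median 158) and from 2.10 to 1210 TPM in BP (median 19). In BP, 8 of the 16 were listed at 0, among them Gad1, Dlx1, Dlx2 and Dlx5. Dlx5 reached 10 TPM in 15 NSC cells, 9 of which also held Aldoc, against 35 of all 45. Sp8, also a factor of dorsal stem cells and in that list as well, averaged 197 TPM in NSC and 6.92 TPM in BP. Calb2 (calretinin), also on the list of Cajal-Retzius markers, went the other way, at 60.2 TPM in BP, from 12 cells at 10 TPM or more, and 1.05 TPM in NSC, from 1 such cell. At least 3 of 10 oligodendrocyte lineage markers reached 10 TPM in 10 of 45 NSC cells (22.2%) and in no BP cell. All 10 were above 0 in NSC, with a sum of 0.23 to 3383 TPM in a cell, and 5 of 10 were listed at 0 in BP, including Olig2 and Sox10. Olig1, a factor of that lineage also found in glial stem cells, reached 10 TPM in 19 NSC cells, 17 of which held Aldoc, against the same 35 of 45.

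No cell of either library held 3 markers of microglia, endothelial cells, meninges, choroid plexus or Cajal-Retzius cells, and C1qa, Cldn5, Dcn and Ttr were listed at 0 in both. The highest sum over a list in a single cell was 1170 TPM (Cajal-Retzius), 1123 TPM (endothelial) and 990.3 TPM (microglia) in BP, and 1784 TPM (meninges) and 1178 TPM (choroid plexus) in NSC, against medians of 0.62 to 5.76 TPM over the 5 lists. In addition, 1 NSC cell held 3 mural markers and 1 BP cell held 3 erythroid markers. Without the cells holding markers of any other type, 74 BP and 22 NSC cells remained, and the counts lower in BP were again 18 of 19 for radial glia genes and 18 of 22 for astroglial genes. Newborn neuron genes were then higher for 16 of 17, and G1/S genes lower for 7 of 14. The part of these cells in the other differences was not tested.

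At E18.5, the nearest other stage with both populations, 61 BP and 66 NSC cells were kept, and 2280 of 8470 genes (26.9%) were 2-fold or more higher in BP and 1432 (16.9%) lower, with a median difference of 0.21. The NSC cells of that stage held a median of 3428 genes, against 4936 in BP, so that detection was less even than at P0. The make-up of NSC differed too. A neuron profile was held by 15 of 66 NSC cells (22.7%) at E18.5, against 3 of 45 (6.67%) at P0. At least 10 of 20 G2/M genes at 1 TPM were held by 17 of 66 (25.8%), against 27 of 45 (60%). Of the 1945 genes higher at P0, 1559 were compared at E18.5, where 692 were also 2-fold or more higher (35.6% of the P0 list and 30.4% of the E18.5 list) and 126 were 2-fold or more lower. Of the 1911 genes lower at P0, 1332 were compared, of which 562 were also lower (29.4% and 39.2% of the lists) and 211 were higher. These shares of whole lists include genes compared at only 1 stage. They cannot be set against the 26.9% and 16.9%, which cover compared genes only. The medians of radial glia genes were -4.73 at P0 and -4.06 at E18.5, those of G2/M genes -2.22 and -2.79, and those of newborn neuron genes 2.03 and 1.93. Basal progenitor genes had a median of -0.46 at P0 and 1.19 at E18.5, and Wnt genes -1.46 and 0.58. Whether these medians differ between stages was not tested. Aldoc was listed at 0 in all BP cells at both stages.

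**Figure D5:**
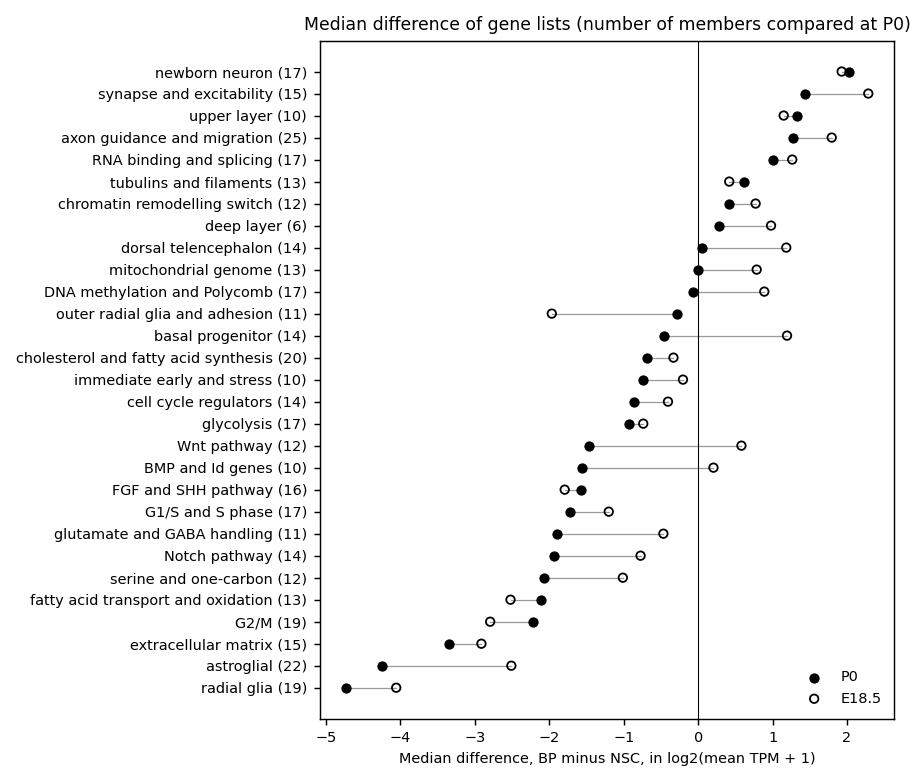
Median difference between BP and NSC of the gene lists with 6 or more members compared at both stages, in log2(mean TPM + 1) on the x axis, at P0 (filled) and E18.5 (open); the number in brackets counts the members compared at P0. Among the lists drawn, radial glia and astroglial genes lie farthest left at P0 and newborn neuron genes farthest right, and the basal progenitor, Wnt, BMP and Id, and DNA methylation lists lie on opposite sides of 0 at the 2 stages.

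The same contrast was tested in the 11 BP and NSC libraries of other stages, which the P0 values do not enter. Over 4 BP and 7 NSC libraries from E10.5 to P1, with age as a covariate, limma called 30 of 13207 genes (0.227%) lower in BP and 1 (0.00757%) higher at a Benjamini-Hochberg adjusted p under 0.05, and 1877 genes had an unadjusted p under 0.05. The 1 gene called higher, Lrrc55 (2.67 ± 0.47 SE, limma adjusted p = 0.0373), is named after its value was seen and was too low to be compared at P0. It was no longer called in 8 of the 11 fits that dropped a library, and no gene was called higher without the age term, with a pseudocount of 10 TPM, from the mean of log2, or with a filter of 5 TPM or none. Of the 15 genes chosen as lower at P0, 15 had a negative difference there and 5 were called. All 15 had an unadjusted limma p under 0.05. Sparc fell by 5.23 ± 0.74 (SE) on the log2(mean TPM + 1) scale, Cyr61 fell by 4.71 ± 0.58 and Acsbg1 fell by 4.53 ± 0.64, each with a limma adjusted p of 0.0136. Aldoc fell by 6.62 ± 1.15 (limma adjusted p = 0.0363) and Gng12 fell by 3.92 ± 0.65 (limma adjusted p = 0.0304). Of the 15 chosen as higher, 15 had a positive difference (0.26 to 2.88) but limma called none, with 8 at an unadjusted p under 0.05. Over all genes, in either direction, 1877 of 13207 were under that limit. Among the lists, 7 of 19 radial glia genes were called lower (Sox9, Fabp7, Ednrb, Hes1, Dbi, Notch2 and Phgdh) and 5 of 21 astroglial genes (Aldoc, Sparc, Mt3, Mt1 and Acsbg1), and none of the 17 newborn neuron, 17 basal progenitor or 20 G2/M genes was called. The number called lower ran from 0 without BP E18.5 to 152 without NSC E15.5. With each of the 11 libraries removed in turn, Hes1 was no longer called in 10 fits, Sox9, Ednrb, Notch2 and Mt1 in 9, Aldoc, Gng12 and Dbi in 8, Sparc, Acsbg1, Fabp7 and Phgdh in 2, and Cyr61 and Mt3 in 1.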

How the data were processed

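Single-cell RNA-seq of sorted dorsal cortex cells was deposited as TPM values per gene and cell. Per the submitters' processing notes, kallisto 0.43.0 was used and the builds GRCm38.p2 and mm10 are named. Of 7 near-empty columns that hold only whole numbers, the unit is unknown and they were treated as a score in the deposited files; 1 belongs to NSC P0 and entered only the alternative that keeps every cell. Cells with fewer than 1000 genes at 1 TPM were left out. Doublets were not called. No thinning to equal depth was possible from TPM. Library means over cells were compared as log2(mean TPM + 1) in Python 3.11.15 (pandas 2.3.3, with exact intervals from scipy 1.17.1). A gene was compared with an average of 5 TPM or more and 1 TPM or more in 10% of cells. Named genes were the 15 largest differences on each side of 4-fold or more whose share of cells at 1 TPM differed by 25 percentage points or more, a rule that 159 and 263 genes passed, plus examples from the gene lists; some of these are not reported here. A cell held markers of another type where 3 or more genes of its list reached 10 TPM. The members and lists were chosen with earlier results of these data known. The 11 other BP and NSC libraries were tested with limma 3.58.1 (R 4.3.3; moderated, with a trend, two-sided, Benjamini-Hochberg over 13207 genes with 1 TPM or more in 4 libraries), with age as a covariate, counting postnatal age from 18.5. On simulated data for that fit over 13207 genes, 4.94% of log2 changes of 1, 32.1% of 2 and 85.7% of 4 were recovered, with 6 unchanged genes called. P-values measure the spread between libraries, which may be technical. Coordinates are from GENCODE M21 (GRCm38), which matched 22361 of 23078 gene IDs, and promoters from RefSeq (GRCm38.p6). Alternatives were other pseudocounts, filters, means, cell limits and libraries.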

Additional observations from a re-analysis of the deposited data

Results flagged for a closer look

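Of all genes compared at both stages, 126 were 2-fold or more higher in BP at P0 and as far lower at E18.5, and 211 the other way. The 5 genes given here are those of the 211 that belong to the gene lists, in differences of log2(mean TPM + 1), and the difference between the stages was not tested. The NSC cells of E18.5 held a median of 3428 genes against 5076 at P0, and 15 of 66 had a neuron profile against 3 of 45. The part of detection or of cell make-up was not tested. Lef1, a Wnt effector, differed by -2.04 at P0 (3.63 TPM in BP, 18.1 in NSC) and by 2.11 at E18.5 (15.1 and 2.72 TPM). Gli3, a transcription factor of the SHH pathway, differed by -1.18 (31.5 and 72.7 TPM) and by 1.17 (30.1 and 12.9 TPM), so that its BP mean was nearly equal at both stages. Otx1, a homeobox factor of the forebrain, differed by -2.54 (9.73 and 61.2 TPM) and by 1.35 (12.502 and 4.28 TPM). Dhcr7, of cholesterol synthesis, differed by -2.20 (6.20 and 32 TPM) and by 1.83 (15.7 and 3.69 TPM). The glycolytic enzyme gene Gpi1 differed by -1.04 (68.7 and 142 TPM) and by 1.25 (223 and 93.2 TPM).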

How the results depend on the processing

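No paired analysis was possible because each side of the P0 comparison is 1 library and the cell numbers only name cells. The count of genes 2-fold or more higher in BP at P0 (1945 of 9768 compared) became 1260 with a pseudocount of 10 TPM. From the mean of log2(TPM + 1) over cells it was 1163. Settings that change the number of genes compared gave 3163 of 16708 without a filter on low values and 1198 of 6882 with a filter of 20 TPM. The count was 672 at 4-fold and 3155 of 8829 with NSC P1 in place of NSC P0, the last 2 settings chosen after seeing the data. The count lower (1911) became 1032 from the mean of log2, 3316 of 16708 without a filter and 823 at 4-fold. Of the genes the text names, Neurog2 turned to 0.28 without cells holding markers of another type, and Hey1 to 1.01 with NSC P1. Sizes changed more often than signs. Of 110 differences followed at P0, 76 were marked as moved from the mean of log2 and 62 with NSC P1. The number was 57 with a pseudocount of 10 TPM, 46 with BP E18.5 in place of BP P0 and 41 without cells holding markers of another type. It was 0 with a filter of 20 TPM and without a filter, which was fixed in advance. The filter sets which genes are counted and does not enter the difference of a gene. The limma count lower in the other libraries (30) was 8 without age, 2 with a pseudocount of 10 TPM, 0 from the mean of log2, 0 without a filter and 48 with a filter of 5 TPM; leaving out 1 library gave 0 to 152 lower and 0 to 31 higher, the 31 and 152 without NSC E15.5. The cause of these moves was not tested, except that 4-fold is a stricter limit and that a filter changes how many genes are compared. With 1 library a side and no depth in TPM, counting error of cells is the one error that could be given at P0.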
